A study of Homo sapiens with 8 samples.

Results

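Expression was examined for 9 genes of plasminogen activation and tissue factor control: PLAT, PLAU, PLAUR, SERPINE2, SERPINB2, TFPI, TFPI2, F3 and THBD. They were picked by symbol from the 60622 gene lines used of one count table, with earlier results of these libraries known, so their levels and changes are given as a description with no p-value. RNA came from human prostate cancer cell lines, LNCaP (from a lymph node metastasis, androgen-responsive) and PC3 (from a bone metastasis), each as a control and with the microRNA miR-375 overexpressed. Each of the 4 groups, LNCaP control, LNCaP miR-375, PC3 control and PC3 miR-375, held 2 libraries. All groups grew in RPMI-1640 with fetal bovine serum and antibiotics. The serum share was 10% for LNCaP and 20% for PC3, so line and serum cannot be told apart. How and for how long miR-375 was raised, what the controls received, and whether a group is a clone are details not given in the sources. The labels do not say whether replicate libraries were grown separately, so p-values reflect only their spread, possibly technical.

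Plasminogen is cut to the broad protease plasmin by tissue-type activator (PLAT), which works best on fibrin, and by urokinase (PLAU), which is held at the cell surface by its receptor PLAUR. Serpins, such as SERPINE2 and SERPINB2, trap these activators in inactive complexes. Clotting starts when tissue factor (F3) binds factor VIIa, a step blocked by TFPI. Thrombomodulin (THBD) turns thrombin towards activating protein C, and TFPI2 is a Kunitz-type inhibitor of plasmin and related proteases. Urokinase and its receptor are much studied in prostate cancer for pericellular proteolysis and invasion.

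A microRNA pairs with messenger RNA chiefly through its seed, bases 2 to 8. The mature strand is shown because its seed is what the 3′ UTR search below used (RefSeq, GRCh38.p14, chr2:219001648-219001669, minus strand; capitals mark the seed).
miR-375-3p: uUUGUUCGuucggcucgcguga
The letters searched on the transcript strand were CGAACAA (pairing with the whole seed) and GAACAAA (pairing with all but its last base, followed by A). None of the 9 genes held either in its longest 3′ UTR of GENCODE 29, which ranged from 362 bases (PLAUR) to 2706 bases (TFPI). Of 14894 tested genes with a UTR, 2505 (16.8%) held at least 1 match. The absence says only that these letters are not in these windows.

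Library totals ran from 33973861 to 41890528 counts. The MIR375 gene itself had 0 counts in all 8 libraries of poly(A)-selected RNA, so the count table does not check the labels for overexpression. The line labels were checked with 8 marker genes each. The summed level of the LNCaP markers was 5965 to 5982 CPM (counts divided by library depth) in LNCaP control and 122 to 127 CPM in PC3 control, and KLK3, which encodes prostate-specific antigen, was at 0 in PC3. The PC3 markers summed to 104 to 107 CPM in LNCaP control and 2128 to 2141 CPM in PC3 control, although KRT5, a basal keratin in that list, was at only 0.0748 CPM in PC3 control. Both sums were lower with miR-375 in their own line, at 4585 to 4715 CPM in LNCaP miR-375 and 1185 to 1202 CPM in PC3 miR-375. In LNCaP the abundant KLK3 fell from 2785 to 1828 CPM, whereas FOLH1 rose from 771 to 853 CPM. In PC3, IL6 rose from 2.99 to 11.2 CPM and KRT5 stayed near 0. The other markers of each list had lower means with miR-375 in their own line. The part of these sums in the members' values was not tested.

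The lines differed by orders of magnitude in the plasminogen activators and hardly at all in TFPI. PC3 control had 50680 and 49424 counts of PLAT, against 18 and 23 in LNCaP control. PC3 control had 29589 and 29067 counts of PLAU, against 8 and 0. For PLAUR the counts were 6990 and 6765 against 34 and 24. The ranges of the lines lay far apart for all of these. The ratio of pooled counts scaled to library size is given with an exact 95% Clopper-Pearson interval. That interval covers counting error only, with each count taken as independent, and is too narrow if both reads of a pair were counted. The ratio was 2112 (1557 to 2944) for PLAT and 6344 (3219 to 14694) for PLAU. On the fitted log2 scale PLAUR was 7.68 ± 0.10 (SE) higher in PC3, a 204-fold ratio of means.

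The other members that stood higher in PC3 control spanned a wide range of differences. SERPINB2, an inhibitor of both activators that is largely kept inside cells, had 1433 and 1284 counts in PC3 control and 2 and 0 in LNCaP control, a pooled ratio of 1175 (325 to 9710). TFPI2 had 4828 and 4603 counts in PC3 control and 84 and 29 in LNCaP control, a pooled ratio of 72.2 (60.0 to 87.7). Its fitted log2 difference of 6.17 ± 0.20 became 7.21 without LNCaP control 1 and 5.60 without LNCaP control 2. THBD was 23.9-fold higher in pooled counts (10.8 to 66.2), SERPINE2 was 3.62-fold higher and F3 was 2.44-fold higher in PC3 control. In all, 8 of 9 members were called higher in PC3 control and 0 lower, where 80.4% of the 21066 tested genes were called, 39.2% higher and 41.2% lower. A gene was called where edgeR's adjusted p over all tested genes was under 0.05. TFPI was the exception, at 90.5 and 86.0 CPM in LNCaP control and 87.5 and 89.9 CPM in PC3 control, ranges that overlap. All 9 members passed the filter on low counts, SERPINB2 and THBD only through PC3: with the LNCaP groups alone, 7 of 9 passed.

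**Figure D1:**
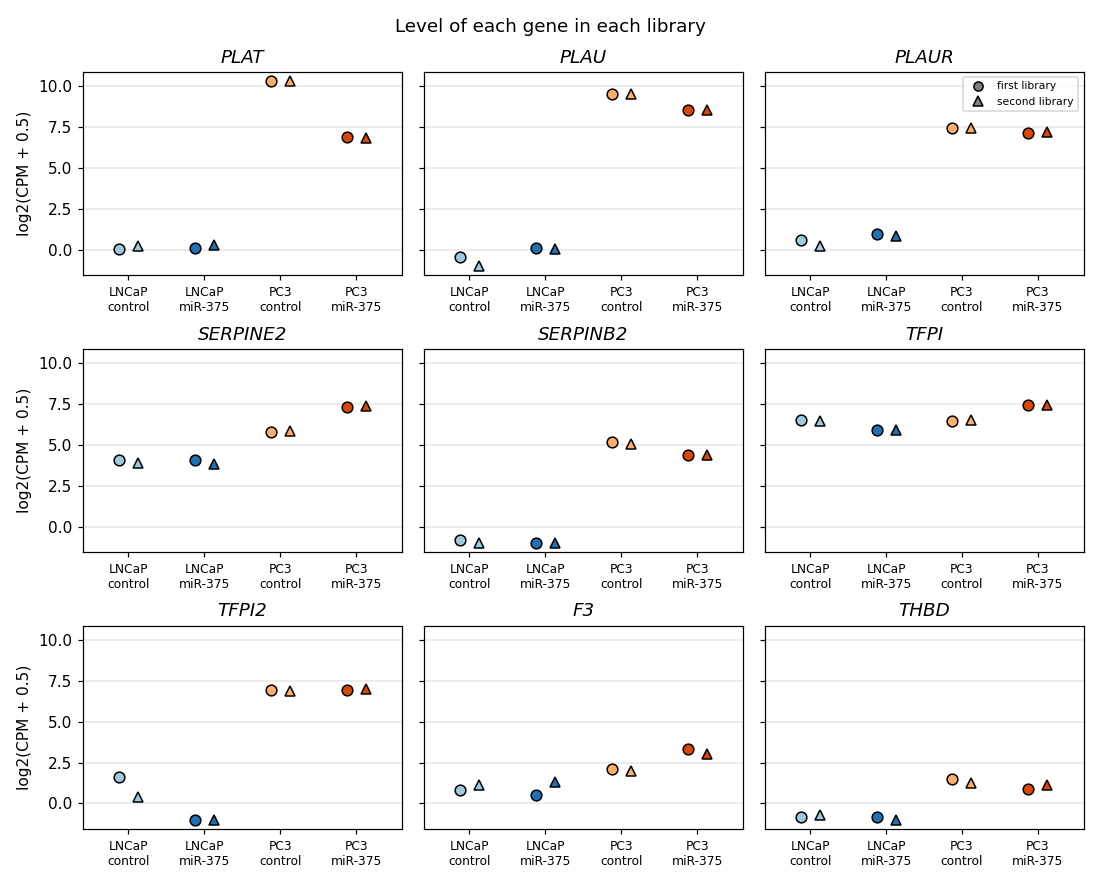
Level of each of the 9 genes in the 8 libraries, as log2(CPM + 0.5) on the y axis, with 1 point per library and the 4 groups along the x axis. PLAT, PLAU and PLAUR lie far higher in PC3 than in LNCaP, whereas TFPI is level between the control groups and moves in opposite directions with miR-375 in each line.

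Levels of different genes were compared per kilobase of exon. In PC3 control the order was PLAU (253 ± 3.79 CPM per kb, SD, n = 2), PLAT (192 ± 1.89), TFPI2 (44.7), PLAUR (39.2), SERPINB2 (12.6), TFPI (7.57), SERPINE2 (6.28), F3 (1.27) and THBD (0.513 CPM per kb), and no neighbours overlapped. In PC3 miR-375 PLAU still led at 128 CPM per kb, PLAT had moved down from rank 2 to rank 5 at 17.4 CPM per kb, and SERPINE2 had moved up from rank 7 to rank 4 at 18.2 CPM per kb. No neighbours overlapped in that order either. LNCaP control had another order. TFPI led at 7.53 CPM per kb and SERPINE2 followed at 1.73 CPM per kb. TFPI2 (0.628) and F3 (0.519) overlapped each other, and PLAUR, PLAT, PLAU, THBD and SERPINB2 were at 0.192 CPM per kb or less, with the last 3 of these overlapping. TFPI and SERPINE2 also led in LNCaP miR-375, at 5.06 and 1.71 CPM per kb, followed by F3 and PLAUR, which overlapped.

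**Figure D2:**
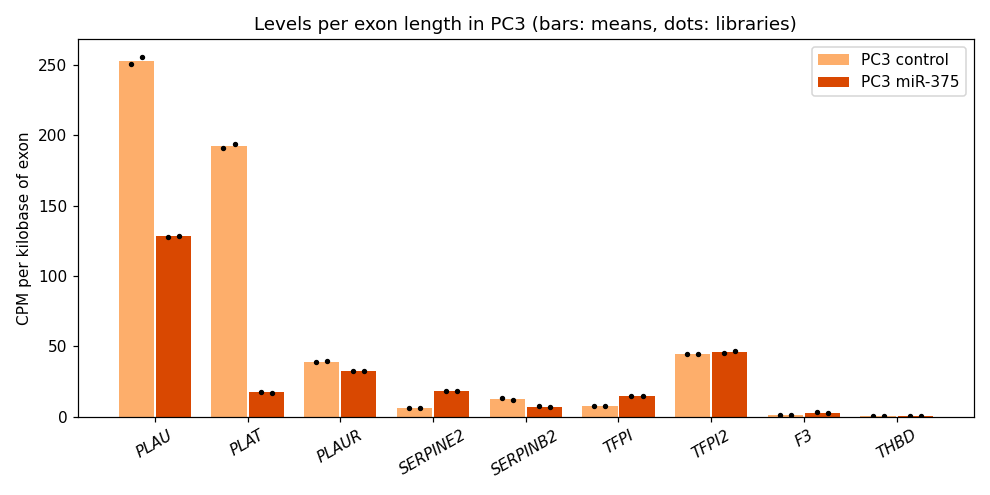
Level per kilobase of exon (CPM per kb, y axis) of the 9 genes in PC3, with bars for the means of PC3 control and PC3 miR-375 and points for the 2 libraries of each. PLAT falls from 192 to 17.4 CPM per kb and PLAU from 253 to 128, and both remain among the 5 members with the highest level.

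In PC3 with miR-375 both plasminogen activators and the urokinase receptor fell, and the inhibitors moved in different directions. Of the 9 members, 7 were called in PC3, 3 higher and 4 lower, where 43.0% of all tested genes were called (22.2% higher and 20.8% lower). Nothing is read from that share, or from the members' shares in the other comparisons, since the genes were chosen with these values known. In bulk RNA, fewer cells expressing a gene and less RNA per cell cannot be told apart.

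PLAT showed the greatest change among the members in PC3. It stood at 1264 and 1282 CPM in PC3 control and at 117 and 113 CPM with miR-375. Both miR-375 libraries were far below both controls, an 11.1-fold fall (log2 fold change -3.47 ± 0.04, SE). PLAT lies on chromosome 8. PLAU (chr10:73909177-73917497, plus strand; coordinates here are GENCODE 29 on GRCh38) fell from 738 and 754 CPM to 377 and 380 CPM. That is a 1.97-fold fall (-0.98 ± 0.04). Its exons overlap 916 bases of the antisense gene C10orf55, which held at most 105 counts in a library, and whether counting used strand is not stated. PLAUR (chr19:43646095-43670547, minus strand), which docks urokinase on the membrane, went from 174 and 175 CPM to 144 and 145 CPM, a 1.21-fold fall (-0.28 ± 0.05). The replicates of each group differed by far less than the groups did for all 3 genes.

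Among the serpins, SERPINE2 rose and SERPINB2 fell in PC3. SERPINE2 (chr2:223975112-224039319, minus strand), an extracellular inhibitor of thrombin, urokinase and tissue-type activator, went from 55.0 and 56.6 CPM to 160.4 and 163 CPM. It was 2.90-fold higher with miR-375 (1.54 ± 0.06), with no overlap. SERPINB2 (chr18:63871692-63903890, plus strand) went from 35.8 and 33.3 CPM to 20.1 and 20.0 CPM, a 1.72-fold fall (-0.78 ± 0.11). It shares 547 exon bases with SERPINB10 on the same strand, which held at most 4 counts.

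On the clotting side, tissue factor and its main inhibitor rose together in PC3, while TFPI2 stayed near its control level. F3 (chr1:94529225-94541800, minus strand) was measured at low depth, with 155 and 132 counts in control and 403 and 328 with miR-375. It rose from 3.87 and 3.42 CPM to 9.59 and 7.78 CPM, which is 2.38-fold (1.25 ± 0.23). TFPI (chr2:187464230-187565760, minus strand) rose from 87.5 and 89.9 CPM to 177 and 175 CPM, which is 1.99-fold (0.99 ± 0.05). Per library, all miR-375 values of both genes lay above all controls. TFPI2 (chr7:93885396-93890991, minus strand) was at 120.4 and 119.4 CPM in PC3 control and at 121 and 126 CPM under miR-375, a log2 difference of 0.04 ± 0.11 that was not called. THBD (chr20:23045633-23049741, minus strand) had only 92 and 74 counts in control and 56 and 72 with miR-375. Its log2 difference of -0.47 ± 0.40 was not called. The pooled ratio was 0.720 (0.568 to 0.913, counting error only), an interval that is too narrow if both reads of a pair were counted.

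**Figure D3:**
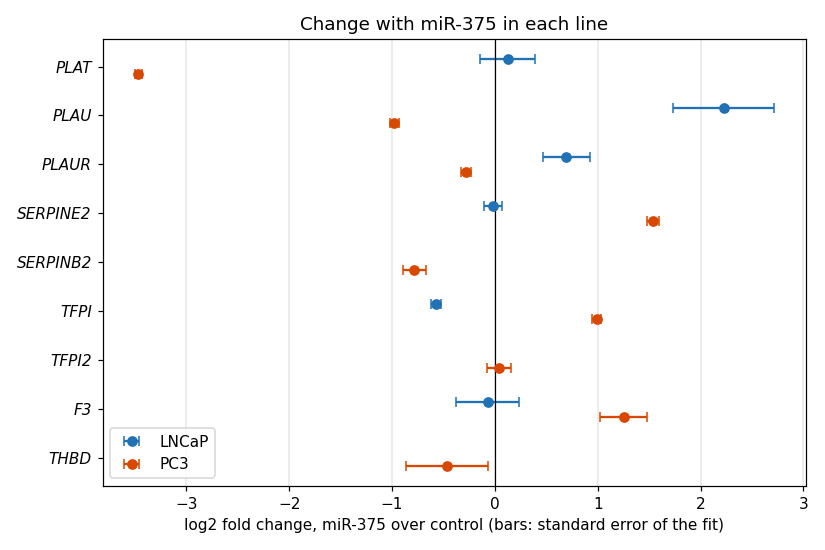
Log2 fold change of miR-375 over control (x axis) with its SE (bars) for each member in LNCaP and in PC3, from the edgeR fit of all 8 libraries. SERPINB2, THBD and TFPI2 are left out for LNCaP because 1 or both groups were at or near 0 counts. PLAU and PLAUR lie above 0 in LNCaP and below 0 in PC3, and TFPI does the reverse.

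In LNCaP the inhibitors TFPI and TFPI2 fell with miR-375, and the urokinase pair, at very low levels, rose. Of the 9 members, 4 were called in LNCaP, 2 higher and 2 lower, where 32.6% of all tested genes were called (13.9% higher and 18.7% lower). TFPI, the member with the highest level in this line, went from 90.5 and 86.0 CPM to 59.0 and 59.5 CPM, a 1.49-fold fall (-0.57 ± 0.05) with no overlap. TFPI2 had 84 and 29 counts in LNCaP control and 0 in both miR-375 libraries. Taking 3 counts as the most that a 0 allows in each library, its level was at least 20.3-fold lower, and at least 10.0-fold lower than in the control library with fewer counts. Both bounds would be lower if both reads of a pair were counted. The control libraries themselves stood apart, at 2.54 and 0.830 CPM.

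PLAU had 8 and 0 counts in LNCaP control and 21 and 20 with miR-375. Both miR-375 libraries were above both controls, and the pooled ratio was 4.77 (2.21 to 11.8). The fitted log2 fold change was 2.22 ± 0.49, and 1.26 ± 0.42 and no longer called without control 2, the library at 0. PLAUR had 34 and 24 counts in control and 53 and 48 with miR-375, that is 1.03 and 0.687 CPM against 1.44 and 1.33 CPM (0.70 ± 0.23). Its call was lost without control 2 (0.48 ± 0.26) and without miR-375 library 1 (0.68 ± 0.28). Even after these rises, PLAU in LNCaP miR-375 (0.561 ± 0.0109 CPM, SD, n = 2) stood far below its level in PC3 miR-375 (379 ± 1.59 CPM).

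The remaining members gave no call in LNCaP. PLAT had 18 and 23 counts in control and 22 and 26 with miR-375 (0.12 ± 0.26), SERPINE2 had 16.7 and 14.1 CPM in control and 16.6 and 13.8 CPM with miR-375 (-0.02 ± 0.09), and F3 had 1.27 and 1.72 CPM in control and 0.921 and 1.94 CPM with miR-375 (-0.07 ± 0.30). Groups overlapped for all 3. SERPINB2 (2 and 0 counts, then 0 and 0) and THBD (2 and 4 counts, then 2 and 0) were too rare for a fold to be given.

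The sizes of the effects were set side by side between lines. The LNCaP effect minus the PC3 effect on the log2 scale was 3.59 ± 0.29 for PLAT, 3.20 ± 0.48 for PLAU and 0.97 ± 0.23 for PLAUR, all towards relatively higher values in LNCaP. It was -1.56 ± 0.11 for SERPINE2, -1.56 ± 0.07 for TFPI and -1.32 ± 0.38 for F3. With TFPI2, which was at 0 in LNCaP miR-375, 7 of 9 members were called in this difference, 3 higher and 4 lower. Of all tested genes, 26.5% were called, 10.9% higher and 15.6% lower. The difference uses the same libraries as each line's effect, and the comparison of control groups shares its libraries with both, so these counts are not separate evidence. The F3 call in the difference was lost without LNCaP control 2 (-1.01 ± 0.44) and without LNCaP miR-375 library 1 (-0.81 ± 0.38). The PLAUR call in the difference was lost with limma-voom (0.99 ± 0.37), and that of TFPI2 without either PC3 control library. For PLAT, whose LNCaP level was near 0.6 CPM throughout, the difference is nearly all the fall in PC3.

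Promoter letters were looked at because several of these genes moved together in PC3. Of the 9 members, 7 had a promoter in the RefSeq table (GRCh38.p14), all but PLAT and THBD. PLAU and SERPINE2 had 2 each, which makes 9 promoters. In the 250 bases before the start, the letters TGANTCA, bound by AP-1 factors, were found on either strand in 1 promoter each of F3, TFPI2, SERPINB2 and PLAUR. That is 4 of 9 promoters, beside 6.57% of all 35116 promoters searched in the same way. By the same count, GGGCGG was found in 5 of 9 and 42.6% of all, GCGNGGGCG in 3 of 9 and 8.41%, TATAAA in 2 of 9 and 10.7%, and CACGTG in 1 of 9 and 6.34%. The NF-kB motif was found in 0 of 9 and 1.73%. The motifs were chosen after the expression values were known. A match is a description and not a bound site. Around the AP-1 match of TFPI2 and that of PLAUR, all 47 bases read lay in annotated exons. Around those of F3 and SERPINB2, 0 bases did. The stretches of F3 and SERPINB2 are shown because these genes carry the match and moved in opposite directions in PC3; capitals mark the matches. The F3 stretch is chr1:94541943-94542002 on the minus strand, with matches 223 and 210 bases before the start. The SERPINB2 stretch is chr18:63887583-63887629 on the plus strand, with a match 102 bases before the start.
F3: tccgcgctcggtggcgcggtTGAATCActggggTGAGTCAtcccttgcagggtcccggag
SERPINB2: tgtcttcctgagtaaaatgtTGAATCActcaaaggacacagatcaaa
Of the genes with the match, F3 rose, SERPINB2 and PLAUR fell and TFPI2 gave no call in PC3. FOSL1, a subunit of AP-1, was at 722 ± 6.24 CPM in PC3 control and 294 ± 1.94 CPM in PC3 miR-375 (SD, n = 2). It was at 0.930 CPM in LNCaP control and 0.520 CPM in LNCaP miR-375. Its part in the members' values was not tested.

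The wider pathway was described with 5 lists of other fibrinolysis and coagulation genes, which held 61 genes. The lists were chosen by function but with earlier results of these data known, so nothing is read from their shares of called genes. Of the 61 genes, 48 were tested. In PC3, 32 of the 48 (66.7%) were called, 16 higher and 16 lower, beside 43.0% of all tested genes, and their median log2 fold change was 0.00 beside 0.02 for all. In LNCaP, 25 of the 48 (52.1%) were called, 11 higher and 14 lower, beside 32.6% of all, with a median of -0.08 beside 0.00. With library totals in place of TMM scaling the LNCaP median of all genes shifted by 0.12 and the pathway split became 15 higher and 10 lower. With those totals SERPINE2 (0.10) and F3 (0.05) changed sign in LNCaP, so neither has a settled direction there.

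Plasmin system partners were called in 12 of 15 cases in PC3 (5 higher, 7 lower) and in 9 of 15 in LNCaP (4 higher, 5 lower). ANXA2, which with S100A10 forms a surface receptor for plasminogen and tissue-type activator, fell 2.02-fold in PC3 from 2864 CPM to 1419 CPM (edgeR adjusted p = 1.27e-16). In LNCaP ANXA2 was also called lower, from 9.28 to 5.11 CPM (edgeR adjusted p = 5.95e-07). S100A10 was called lower in both lines. Its log2 fold change was -0.16 in PC3 (from 365 to 326 CPM) and -0.68 in LNCaP, at a low level (from 1.60 to 1.00 CPM). MRC2, an endocytic collagen receptor that associates with the urokinase receptor, rose 2.00-fold in PC3, from 158 to 317 CPM (edgeR adjusted p = 6.34e-20). It was also called higher in LNCaP, from 3.11 to 5.04 CPM (edgeR adjusted p = 4.02e-05). SERPINI1, a serpin that inhibits tissue-type activator, rose from 6.42 to 13.8 CPM in PC3 and from 19.7 to 33.7 CPM in LNCaP (edgeR adjusted p = 1.82e-10 and 3.34e-08). SERPINF2, the main plasmin inhibitor of plasma, rose from 0.817 to 2.12 CPM in PC3 (edgeR adjusted p = 0.00716), a call lost without PC3 control 1 (0.0774) or PC3 miR-375 library 1 (0.0898). ENO1, a glycolytic enzyme that also binds plasminogen, was the most abundant gene of the list and fell from 4204 to 3560 CPM in PC3. It was also called lower in LNCaP, from 3213 to 2612 CPM (edgeR adjusted p = 1.28e-10). The difference between the lines was not called for ANXA2, MRC2 or ENO1 (edgeR adjusted p = 0.380, 0.124 and 0.334).

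Of 8 tested proteases reported to activate pro-urokinase, 3 were called in each line, 2 higher and 1 lower in both. CTSB, the lysosomal protease cathepsin B, rose in LNCaP from 184 to 293 CPM (edgeR adjusted p = 2.15e-17) and was at 294 and 281 CPM in PC3 (0.128). ST14, the membrane protease matriptase, was abundant in LNCaP (197 CPM in control, 178 CPM with miR-375, edgeR adjusted p = 0.0913). In PC3 it rose from 0.150 to 1.57 CPM (edgeR adjusted p = 4.97e-07), with 1 control library at 0.

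Coagulation factors and the genes that process them were called in 8 of 14 cases in PC3 (3 higher, 5 lower) and in 6 of 14 in LNCaP (2 higher, 4 lower). In PC3 the fibrinogen chains FGB and FGG rose from near 0: FGB from 0.458 to 73.5 CPM (edgeR adjusted p = 1.30e-28) and FGG from 0.0768 to 3.54 CPM (edgeR adjusted p = 9.07e-10). The third chain, FGA, was at 0 in all 4 PC3 libraries. F5, the cofactor of factor Xa, rose in LNCaP from 3.37 to 8.54 CPM (edgeR adjusted p = 1.90e-05). LMAN1, the cargo receptor that carries factors V and VIII out of the endoplasmic reticulum, fell 1.99-fold in LNCaP, from 266 to 133 CPM (edgeR adjusted p = 6.09e-22), and 1.28-fold in PC3.

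Of 8 tested coagulation inhibitors and protein C system genes, 6 were called in each line, 3 higher and 3 lower in both. SPINT1, a Kunitz-type inhibitor of matriptase, rose 2.23-fold in PC3, from 56.8 to 127 CPM (edgeR adjusted p = 2.09e-22). It was also called higher in LNCaP, from 197 to 242 CPM (edgeR adjusted p = 1.89e-07). ANXA5, which shields anionic phospholipid from clotting factors, fell 1.95-fold in PC3, from 792 to 406 CPM (edgeR adjusted p = 3.92e-23). All 3 tested protease-activated receptors were called higher in PC3, and 1 of 3 was called in LNCaP, lower. That 1 was F2RL1, the trypsin and tryptase receptor, which fell from 84.2 to 56.5 CPM in LNCaP (edgeR adjusted p = 1.85e-12). It rose from 312 to 341 CPM in PC3 (edgeR adjusted p = 0.00777). This PC3 call was lost without PC3 control 2 (0.0655), without PC3 miR-375 library 1 (0.106) and with no filter on low counts (0.0643).

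**Figure D4:**
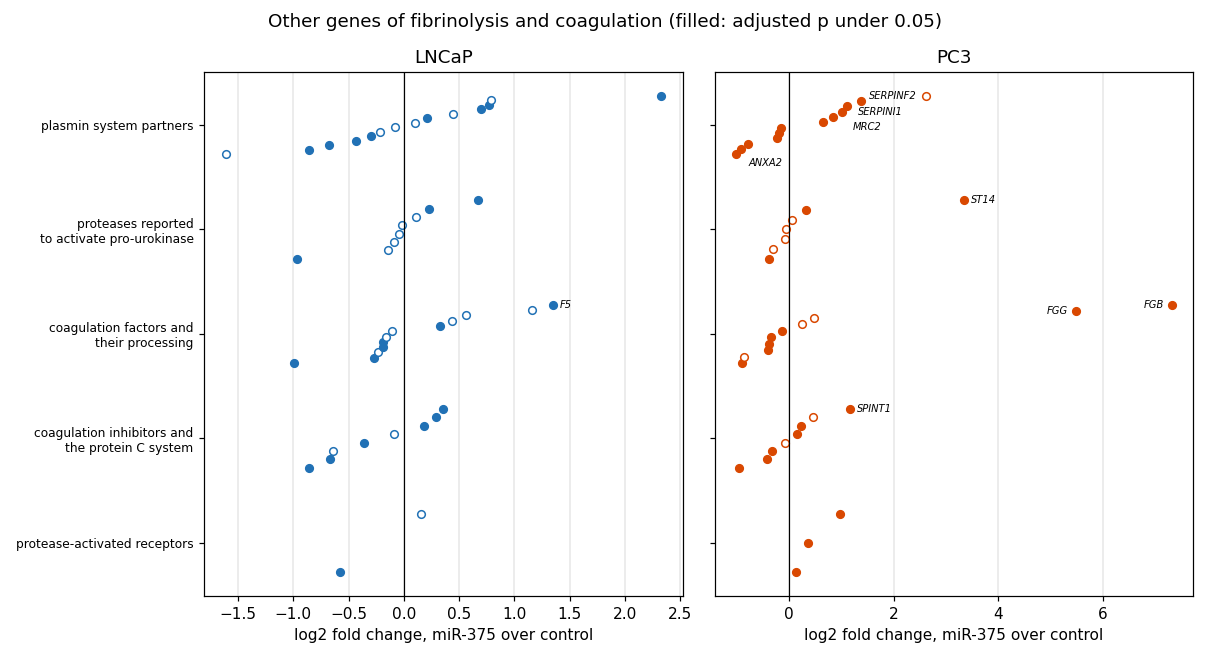
Log2 fold change of miR-375 over control (x axis, on a different scale in each panel) for the tested genes of the 5 pathway lists in LNCaP and PC3, with filled points for an edgeR adjusted p under 0.05. Genes with a group at 0 CPM, and 1 further gene, are left out. In both lines every list but the receptors has called genes on both sides of 0.

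For each member the genes with the most similar profile over the 8 libraries were found by the root mean square (RMS) difference of centred log2(CPM + 0.5) values. The nearest were LINC00261 for PLAT (RMS 0.689), APOBEC3C for PLAU (0.339) and SAA1 for SERPINE2 (0.116). For PLAUR, NTN4 was second nearest (0.132). They were KLF12 for SERPINB2 (0.0853), SEMA3C for TFPI (0.110), KRT7 for TFPI2 (0.281), CYP27B1 for F3 (0.206) and TEP1 for THBD (0.0838). The added 0.5 shrinks differences of genes near 0 CPM, so a small RMS there need not mean equal folds. THBD was at 0.0875 CPM in LNCaP control and 2.11 CPM in PC3 control, and TEP1 at 9.88 and 49.8 CPM. PLAT had the least close neighbour of the 9, with HAS3 next at 0.730. KRT7 went from 1.65 to 0.0824 CPM in LNCaP and from 126 to 132 CPM in PC3, the pattern of TFPI2. By the same measure, SEMA3C went from 113 to 84.2 CPM in LNCaP and from 108 to 249 CPM in PC3, the pattern of TFPI.

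Several members are known from endothelium, fibroblasts or platelets, so markers of these cells were read beside them. The 9 endothelial markers summed to 415 CPM in both PC3 control libraries and to 229 and 230 CPM with miR-375, with 4 of 9 over 1 CPM in both groups. KDR gave most of that sum (322 and 173 CPM), and PECAM1 (45.1 and 32.3 CPM), ROBO4 (23.5 and 9.48 CPM) and ESAM (22.7 and 13.9 CPM) were also lower with miR-375. CDH5 (0.128 and 0.154 CPM) and VWF (0.101 and 0.143 CPM) were near 0. The 9 fibroblast markers summed to 220 to 237 CPM in PC3 control and 437 to 453 CPM with miR-375, led by COL1A1 (139 and 373 CPM). FBLN1 (49.5 and 37.5 CPM) and PDGFRA (33.7 and 23.2 CPM) of that list were lower with miR-375. DPT was at 0 in both groups and DCN was at 0 in PC3 control. The 8 platelet markers rose in sum from 6.59 to between 12.4 and 12.5 CPM in PC3, led by ITGA2B (4.35 and 9.41 CPM), with GP9 at 0. PPBP (0.254 and 0.0951 CPM), GP6 (0.251 and 0.119 CPM) and TREML1 (0.0908 and 0 CPM) of that list were lower with miR-375. The 8 leukocyte markers summed to at most 4.13 CPM in any library. In LNCaP the endothelial sums were 8.33 to 9.24 CPM and 7.91 to 9.02 CPM, and the fibroblast sums were 48.1 to 57.4 CPM and 55.1 to 59.4 CPM. The part of the moving sums in the members' values was not tested.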

How the data were processed

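Poly(A) RNA was made into dUTP-marked libraries read as pairs, per the labels' protocols. The authors deposited whole-number counts per gene, not normalized. Per the submitters' processing notes, fastp, STAR 2.7.1a, featureCounts and DESeq2 were used, on hg38. Their roles, the annotation, the strand setting and whether reads or pairs were counted are not stated there. Of counts from 1 to 20, 68.1% to 70.3% per library were even. Of 60625 gene lines, 3 were split by line breaks and dropped (279 counts; ANK2 was not analysed here).

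The members and gene lists were chosen with earlier results of these data known. Genes passing filterByExpr (21066) were fitted in 1 model of 4 groups with TMM scaling (factors 0.957 to 1.06) and 4 residual degrees of freedom, by robust quasi-likelihood in edgeR 4.0.16 (R 4.3.3), after tests on simulated data. Adjusted p-values are Benjamini-Hochberg over all tested genes, called under 0.05. The 4 comparisons were miR-375 against control in each line, the difference of these, and PC3 control against LNCaP control. CPM use TMM-scaled totals, and CPM per kb divides by the GENCODE 29 exon union, which may differ from the authors' annotation. Replicates of a group differed by more than counting noise (chi-square per degree of freedom 3.57 to 3.79), so none was merged. Intervals are exact Clopper-Pearson, and 0 counts in a library were taken to allow up to 3. Both leave out the spread between libraries, since they treat every count as independent. The libraries carry no molecular identifiers, and whether reads or pairs were counted is not stated. If both reads of a pair were counted, the intervals are too narrow and the bounds too high.

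Named pathway genes were those called in a miR-375 comparison with a log2 fold change of at least 1 in size and at least 1 CPM in a group, plus the most abundant tested gene of each list. S100A10, FGA and the marker genes were named after their values were seen. For likeness, the 2 nearest tested genes with at least 5 CPM in a group were found. Of the genes these rules name, 2 are not reported here. The 5 lists were plasmin system partners, proteases reported to activate pro-urokinase, coagulation factors and their processing, coagulation inhibitors and the protein C system, and protease-activated receptors. Alternatives were RLE size factors, library totals, no filter, DESeq2 1.42.0, limma-voom 3.58.1, a replicate block, groups fitted alone, counts halved, and leaving out each library.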

Additional observations from a re-analysis of the deposited data

Results flagged for a closer look

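In edgeR's interaction test (log2 effect of miR-375 in LNCaP minus that in PC3), 19 of 48 pathway genes (39.6%) were called, beside 26.5% of all tested genes. Nothing is read from that share, since the lists were chosen with earlier results known. Of the named genes among these 19, 6 reached at least 1 CPM in each line. The difference was 0.74 for CTSB (adjusted p = 3.34e-14), -3.48 for ST14 (8.14e-07), -0.64 for LMAN1 (1.72e-12), 0.88 for ANXA5 (2.78e-16), -0.87 for SPINT1 (3.13e-14) and -0.71 for F2RL1 (2.12e-11). ST14 rests in PC3 on levels of 0.150 and 1.57 CPM. Only F2RL1 of these 6 was called in opposite directions in the lines. Among the rest of the 19, F8 and PROCR were too. The log2 fold change of F8 was 0.33 in LNCaP (edgeR adjusted p = 0.0123) and -0.39 in PC3 (0.0108). That of PROCR was -0.36 in LNCaP (0.00740) and 0.23 in PC3 (0.0136). F5 and FGG were also called in the difference, each with a group at 0 counts, so no fitted value is given for them. The F5 call (adjusted p = 0.0460) was lost under most alternatives. These included RLE size factors (0.0504), DESeq2 (0.0531), limma-voom (0.0979) and the replicate block (0.0514). For FGG, LNCaP control 2 was the only LNCaP library above 0, and the call was lost without that library.

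For 4 members every miR-375 library moved one way from the controls in LNCaP and the other way in PC3. Their differences between the lines are given in the report as a description with no p-value, since the genes were chosen with these values known. The log2 fold change in PC3 was -0.98 for PLAU and -0.28 for PLAUR, both higher in LNCaP. It was 0.99 for TFPI and 0.04 for TFPI2, both lower in LNCaP, and the TFPI2 value was within its SE of 0.11.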

How the results depend on the processing

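No member, and no pathway gene named by the rules above, reversed a called direction under the 16 alternatives. Counts of called genes, over all tested genes and over the pathway lists, stayed within 1.5 times their main value. With the replicate block they were 6617 (LNCaP; 6860 without it), 8777 (PC3; 9059), 5327 (difference; 5589) and 16708 (control groups; 16929), and 25, 32, 18 and 44 pathway genes. The replicate numbers share only a number: deviations of same-numbered libraries correlated at -0.034 to 0.020 over 11811 genes. With library totals, 64.3% of LNCaP calls were higher, against 42.7% with TMM (4717 and 2927 genes). Member calls in LNCaP went from 4 to 2 without LNCaP control 2. In PC3 no member lost its call. In LNCaP the PLAUR call was also lost with limma-voom (0.71 ± 0.36), groups fitted alone (0.70 ± 0.37) and counts halved (0.76 ± 0.33). The TFPI2 call was lost without either PC3 control library, although its bound does not use them. The cause was not tested. Depth limits PLAU, PLAUR, PLAT, SERPINB2, TFPI2, F3 and THBD in LNCaP. The F3 log2 fold change there was 0.42 without miR-375 library 1 and -0.65 without miR-375 library 2.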

Other observations

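Sums over genes, chosen after the values were seen, describe both activators together in PC3 on the per-kilobase scale. PLAT and PLAU together had 441 and 449 CPM per kb in PC3 control and 145.6 and 145.8 CPM per kb in PC3 miR-375. PLAT made up 43.3% and 43.1% of that sum in control and 12.1% and 11.7% with miR-375, so urokinase accounted for most of what remained. These are sums of RNA and say nothing of protein or of activity.

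The ratio of TFPI to F3 per kilobase was 5.55 and 6.44 in PC3 control and 4.53 and 5.53 with miR-375. In LNCaP it was 17.5 and 12.3 in control and 15.7 and 7.53 with miR-375, so its range overlapped between groups there. In PC3 the groups stood next to each other, with the highest miR-375 value just under the lowest control value.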
